A study of Homo sapiens with 17 samples.

Results

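The genes described here are 8 genes of prostaglandin synthesis, breakdown and reception: PTGS1, PTGS2, PTGES, PTGES2, PTGES3, HPGD, PTGER2 and PTGER4. They were chosen by gene symbol, and each had 1 row among the 58870 rows of the deposited table. The RNA came from MDA-MB-231, a long-established line of human triple-negative breast cancer cells, labelled mesenchymal and basal B. The cells were grown in RPMI medium with 10% serum and given TRAIL, a death ligand of the TNF family, at 45 nM. That dose is stated to be suboptimal, chosen so that expression would be read in live rather than apoptotic cells. The 6 groups were 0, 1, 3, 6, 12 and 24 h with TRAIL, with 3 libraries each apart from 1 h, where 2 were analysed here. Every library carried the same treatment label, those at 0 h included, and none was labelled as untreated at a later time. Time with TRAIL and time in culture can therefore not be told apart. Nothing in the labels says that the libraries of a time came from separate cultures, so the p-values measure only the spread between these libraries, which may be technical.

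Prostaglandins are lipid signals made from arachidonic acid, which phospholipases free from membranes. The cyclooxygenases PTGS1 and PTGS2 turn it into prostaglandin H2, and prostaglandin E synthases convert that into prostaglandin E2, the main prostaglandin of many epithelial tumours. Prostaglandin E2 leaves the cell and acts on receptors such as EP2 and EP4, which raise cyclic AMP, while HPGD inactivates it. In breast cancer the pathway is known for its links to inflammation and to immune cells around the tumour.

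Total counts ran from 13731520 to 19234924 per library, and the common biological coefficient of variation, the spread between libraries beyond counting error, was 7.06%. Levels are given in CPM, the counts of a gene relative to the TMM-scaled library total. A gene is called higher or lower when its p-value from edgeR's quasi-likelihood test, with Benjamini-Hochberg adjustment across the 15365 genes past the filter on low counts, was below 0.05. The line's mesenchymal markers were abundant, with VIM at 2495 to 3724 CPM, and ESR1, PGR and FOXA1 had at most 2 counts in any library. Of the other markers expected to be low, CDH1 was at 0.267 to 1.01 CPM and GATA3 at 6.97 to 12.1 CPM. KRT8 reached 804 to 1142 CPM, KRT18 522 to 931 CPM and EPCAM 13.1 to 19.3 CPM, which goes against a fully mesenchymal profile. Replicates 2 and 3 were closer to each other at 6 h and at 24 h than any other replicate pair, with a chi-square per gene of 1.57 and 1.67 against 3.44 to 12.3 in the 14 other pairs. Mitochondrial genes took 7.99% to 8.97% of the counts at 3 h, 3.97% to 5.45% at 6 h and 3.66% to 4.14% at 24 h, against 5.53% to 8.37% at 0 h. The summed level of the 8 mesenchymal markers was 9150 to 9614 CPM at 0 h, 10615 to 10907 at 6 h and 7979 to 8005 at 24 h. The part of either shift in the results was not tested.

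PTGS2 RNA was 2.68 times its 0 h level at 3 h and 2.80 times at 6 h, and PTGES RNA fell to 0.583 times its 0 h level at 6 h before it reached 1.62 times that level at 24 h. The 2 genes encode consecutive steps of prostaglandin E2 synthesis and differed from 0 h in opposite directions at 3 and 6 h. PTGES2 fell at 12 and 24 h, and PTGES3 rose slightly at 6 h. PTGS1 and both receptors were not called against 0 h at any time, and HPGD was too low to be tested. In bulk RNA, a change in the number of cells that express a gene and a change in RNA per cell cannot be told apart.

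Of the 7 genes tested, 0 were called at 1 h by edgeR, where 0.312% of all genes tested were called (0.26% higher, 0.0521% lower). At 1 h only PTGS2 had an unadjusted p below 0.05, and DESeq2 and limma-voom also called 0 of them. At 3 h 2 of 7 were called, PTGS2 higher and PTGES lower, beside 17.7% of all genes (9.04% higher, 8.71% lower). At 6 h 3 of 7 were called, PTGS2 and PTGES3 higher and PTGES lower, beside 30.1% of all genes (16.9% higher, 13.2% lower). At 12 h 1 of 7 was called, PTGES2 lower, beside 12.4% of all genes (5.96% higher, 6.48% lower). At 24 h 2 of 7 were called, PTGES higher and PTGES2 lower, beside 35.1% of all genes (18% higher, 17.1% lower). In the test over all 6 times 5 of 7 were called, beside 64.2% of all genes. These counts are close to the shares among all genes and say nothing particular about the 8 genes. All 5 comparisons with 0 h share the same 3 libraries at 0 h. The median log2 fold change of the 7 genes lay between -0.29, at 3 h, and 0.16, at 24 h, and the median over all genes tested between -0.02 and 0.00.

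**Figure D1:**
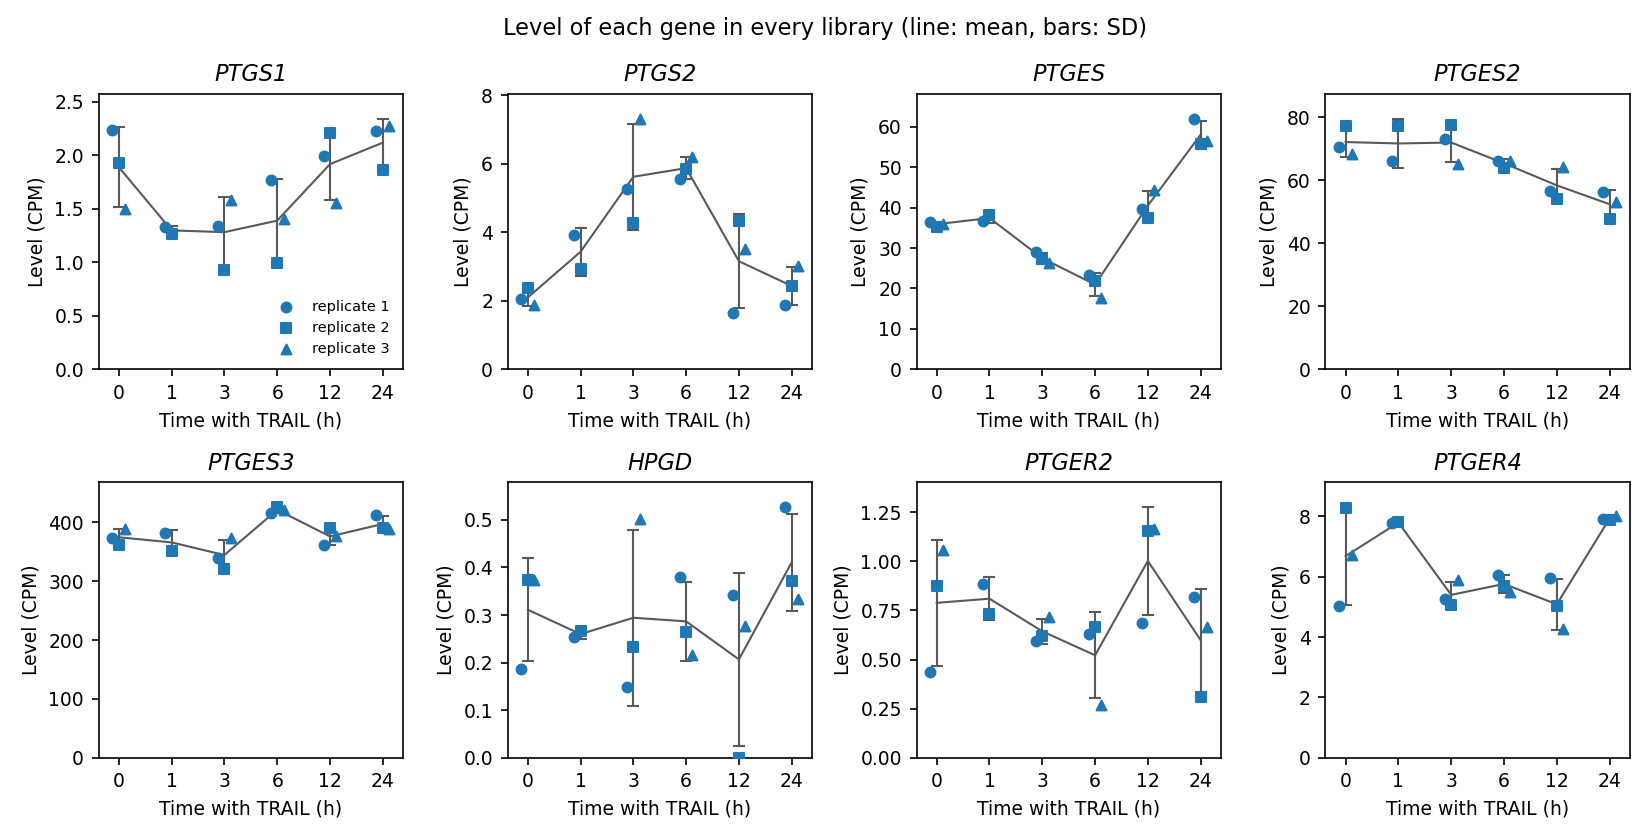
Level in CPM (vertical axis, from 0) of each of the 8 genes in every library (points) by time with TRAIL (horizontal axis, h), with the mean (line) and SD (bars) of 3 libraries, or 2 at 1 h. PTGS2 stands highest at 3 and 6 h, when PTGES stands lowest, and PTGES stands highest at 24 h.

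The stretches of 250 bases before the start of PTGS2 and PTGES are printed because these genes differed from 0 h in opposite directions at 3 and 6 h. They are from RefSeq on GRCh38.p14, which held an entry for 8 of the 8 genes. The PTGS2 stretch is chr1:186680424-186680673 and the PTGES stretch chr9:129753043-129753292, both on the minus strand and written 5' to 3'. Capitals mark every match, on either strand, to one of 6 short patterns. The NF-kB type was searched as GGG and CC with any 5 bases between them, and the C/EBP type as TTNNGNAAT, with N for any base. The partial cyclic AMP response element was searched as TGACG and the TATA box, which places the start of transcription in some promoters, as TATAAA. The GC box, a pattern common in promoters rich in these bases, was searched as GGGCGG, and the E-box, known from factors of the helix-loop-helix family, as CACGTG.
PTGS2: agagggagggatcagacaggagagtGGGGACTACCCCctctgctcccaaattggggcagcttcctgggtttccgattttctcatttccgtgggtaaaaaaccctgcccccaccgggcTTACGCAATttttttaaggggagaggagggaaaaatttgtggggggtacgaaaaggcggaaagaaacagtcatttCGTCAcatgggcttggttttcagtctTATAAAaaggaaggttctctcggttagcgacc
PTGES: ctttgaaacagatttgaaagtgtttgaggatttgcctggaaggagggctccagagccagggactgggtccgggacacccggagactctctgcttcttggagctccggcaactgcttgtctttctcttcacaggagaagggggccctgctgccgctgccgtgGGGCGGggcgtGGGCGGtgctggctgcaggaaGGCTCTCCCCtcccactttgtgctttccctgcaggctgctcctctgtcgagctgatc
The PTGS2 stretch held the TATA box from 32 to 27 bases before the start, the cyclic AMP element from 58 to 54, the C/EBP type from 133 to 125 and 3 overlapping matches to the NF-kB type between 225 and 214. The PTGES stretch held the GC box from 89 to 84 and from 78 to 73 bases before the start, and the NF-kB type from 57 to 48. Matches to different patterns did not overlap in either stretch. The TATA box occurred in 10.7%, the C/EBP type in 9.85% and the cyclic AMP element in 21.2% of the 35116 promoter stretches of the same length in the table. The NF-kB type occurred in 54.4% of them, the GC box in 42.6% and the E-box in 6.34%. Of the 8 genes, only PTGS2 held the TATA box or the C/EBP type in this window. PTGES held 0 matches to those 2 patterns or to the cyclic AMP element, and neither of the 2 printed stretches held the E-box. A match to such letters is a description of the stretch and not a site of binding.

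PTGS2 (Ensembl gene ENSG00000073756, GRCh38 chr1:186671791-186680427, minus strand) encodes the inducible cyclooxygenase, COX-2. Its level was 2.05, 2.37 and 1.87 CPM in the 3 libraries at 0 h. At 1 h it was 3.92 and 2.93 CPM. At 3 h it was 5.27, 4.27 and 7.31 CPM, and at 6 h 5.56, 5.84 and 6.21 CPM. Every library at 1, 3 and 6 h thus lay above every library at 0 h, and the 3 h libraries were the most spread. By 12 h the level was 1.65, 4.31 and 3.50 CPM, and at 24 h 1.87, 2.42 and 3.00 CPM. Both later groups overlapped the range at 0 h, with replicate 1 at 12 h the lowest library of all 17. Expected counts of PTGS2 ran from 24 to 115 per library, and how much of its spread is counting error was not tested.

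The log2 fold change of PTGS2 against 0 h was 1.42 at 3 h (SE 0.272, edgeR adjusted p = 0.00163) and 1.48 at 6 h (SE 0.265, edgeR adjusted p = 0.00057). At 1 h it was 0.71 (SE 0.315), with an edgeR adjusted p of 0.941. The difference between 6 h and 3 h was 0.06 (SE 0.237, edgeR adjusted p = 0.856), less than its error. From 6 h to 12 h PTGS2 fell by 0.86 on the log2 scale (SE 0.245, edgeR adjusted p = 0.0184), a comparison in which 2 of the 7 genes, PTGS2 and PTGES, and 20.6% of all genes were called (8.7% higher, 11.9% lower). This call was lost without replicate 1 at 12 h, where the value was -0.59 (edgeR adjusted p = 0.0644), without replicate 2 at 6 h (-0.87, adjusted p = 0.0513) and without replicate 3 at 6 h (-0.82, adjusted p = 0.0687). At 12 h the difference from 0 h was 0.62 (SE 0.282, edgeR adjusted p = 0.157), and it was called, at 0.89 (adjusted p = 0.0207), when replicate 1 at 12 h was left out. At 24 h it was 0.20 (SE 0.299, edgeR adjusted p = 0.624). The calls at 3 and 6 h were kept in all alternatives run, with log2 fold changes from 1.19 to 1.58 and from 1.38 to 1.58.

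PTGS1 (ENSG00000095303, chr9:122370530-122395703, plus strand) encodes COX-1, the cyclooxygenase that most tissues make at a steady level. It was measured at 2.24, 1.93 and 1.49 CPM at 0 h and at 1.33 and 1.27 CPM at 1 h. At 3 h it was 1.33, 0.932 and 1.58 CPM, and at 6 h 1.77, 0.995 and 1.4 CPM. At 12 h it was 1.99, 2.21 and 1.55 CPM, and at 24 h 2.22, 1.86 and 2.27 CPM. Both libraries at 1 h lay below all 3 at 0 h, and the groups from 3 h on overlapped those at 0 h. The log2 difference from 0 h was -0.54 at 1 h, -0.55 at 3 h (SE 0.264, edgeR adjusted p = 0.154) and -0.44 at 6 h (SE 0.252, edgeR adjusted p = 0.196). In the test over all times the edgeR adjusted p of PTGS1 was 0.0586, and PTGS1 was called in that test with library size alone and without replicate 3 at 0 h, at 3 h or at 12 h, or replicate 1 at 6 h. PTGS1 had 12 to 44 counts per library.

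Within each library, the number of PTGS2 counts per PTGS1 count does not depend on how libraries are scaled. It was 0.917, 1.23 and 1.25 in the 0 h libraries and 2.95 and 2.32 in those at 1 h. At 3 h it was 3.94, 4.58 and 4.64, and at 6 h 3.14, 5.87 and 4.42. Every library at 1, 3 and 6 h lay above the 0 h range. At 12 h the ratio was 0.828, 1.95 and 2.25, and at 24 h 0.842, 1.30 and 1.32, so both groups overlapped the 0 h range. Corrected for exon length, PTGS2 RNA stood at 1.24 ± 0.204 (SD, n = 3) times PTGS1 RNA at 0 h and at 4.92 ± 1.5 (SD, n = 3) times at 6 h. Exon length is that of all annotated exons of a gene merged, which can differ from the transcripts expressed.

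PTGES (ENSG00000148344, chr9:129738331-129753047, minus strand) encodes the inducible microsomal prostaglandin E synthase, which acts on the product of the cyclooxygenases. Its level was 36.5, 35.2 and 36.0 CPM at 0 h and 36.6 and 38.3 CPM at 1 h. At 3 h it was 28.9, 27.3 and 26.2 CPM, and at 6 h 23.3, 22 and 17.7 CPM. The libraries at 1 h lay just above all at 0 h, with a log2 difference of 0.06 (SE 0.0971, edgeR adjusted p = 0.987). All libraries at 3 and 6 h lay below all at 0 h, and all at 6 h lay below all at 3 h. By 12 h the level was 39.6, 37.5 and 44.4 CPM, and at 24 h 62.0, 55.6 and 56.4 CPM. All libraries at 12 h lay just above, and all at 24 h well above, those at 0 h.

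Against 0 h, PTGES fell by 0.38 on the log2 scale at 3 h (SE 0.0901, edgeR adjusted p = 0.00646) and by 0.78 at 6 h (SE 0.0908, edgeR adjusted p = 6.81e-06). At 12 h the difference was 0.17 (SE 0.0859, edgeR adjusted p = 0.194), and at 24 h PTGES was higher by 0.69 (SE 0.0848, edgeR adjusted p = 1.15e-05). Each step between neighbouring times after 1 h was called for PTGES. It fell by 0.45 from 1 h to 3 h (edgeR adjusted p = 0.0107) and by 0.39 from 3 h to 6 h (edgeR adjusted p = 0.00233). It then rose by 0.95 from 6 h to 12 h (edgeR adjusted p = 6.68e-07) and by 0.52 from 12 h to 24 h (edgeR adjusted p = 8.63e-04). In these comparisons of neighbouring times, 1 of the 7 genes was called from 1 h to 3 h, PTGES lower, beside 5.73% of all genes (3.17% higher, 2.56% lower). From 3 h to 6 h 2 were called, PTGES lower and PTGES3 higher, beside 43.2% (22.9% higher, 20.3% lower). From 12 h to 24 h 2 were called, PTGES and PTGER4, both higher, beside 12% (6.42% higher, 5.6% lower). By the p-value over all times PTGES ranked 58 among the 15365 genes tested, with an edgeR adjusted p of 3.32e-09. The call from 1 h to 3 h rested on both 1 h libraries, with -0.48 (adjusted p = 0.0579) without replicate 1 and -0.41 (adjusted p = 0.0864) without replicate 2. The other calls of PTGES were kept in all alternatives run, from -0.86 to -0.67 at 6 h and from 0.64 to 0.77 at 24 h.

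The number of PTGES counts per PTGS2 count, again within a library, brings the opposite courses together. It was 17.8, 14.9 and 19.3 in the 0 h libraries and 9.32 and 13.0 in those at 1 h. At 3 h it was 5.49, 6.39 and 3.58, and at 6 h 4.18, 3.76 and 2.85. All libraries at 1, 3 and 6 h lay below the 0 h range, although at 1 h PTGES itself was not lower than at 0 h. By 12 h the ratio was 24.0, 8.70 and 12.7, on both sides of that range, and at 24 h it was 33.1, 23.0 and 18.8, where replicate 3 fell within it. Over the 17 libraries the log2 CPM of PTGS2 and PTGES had a Pearson correlation of -0.73, given as a description because libraries of 1 time share their treatment time.

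**Figure D2:**
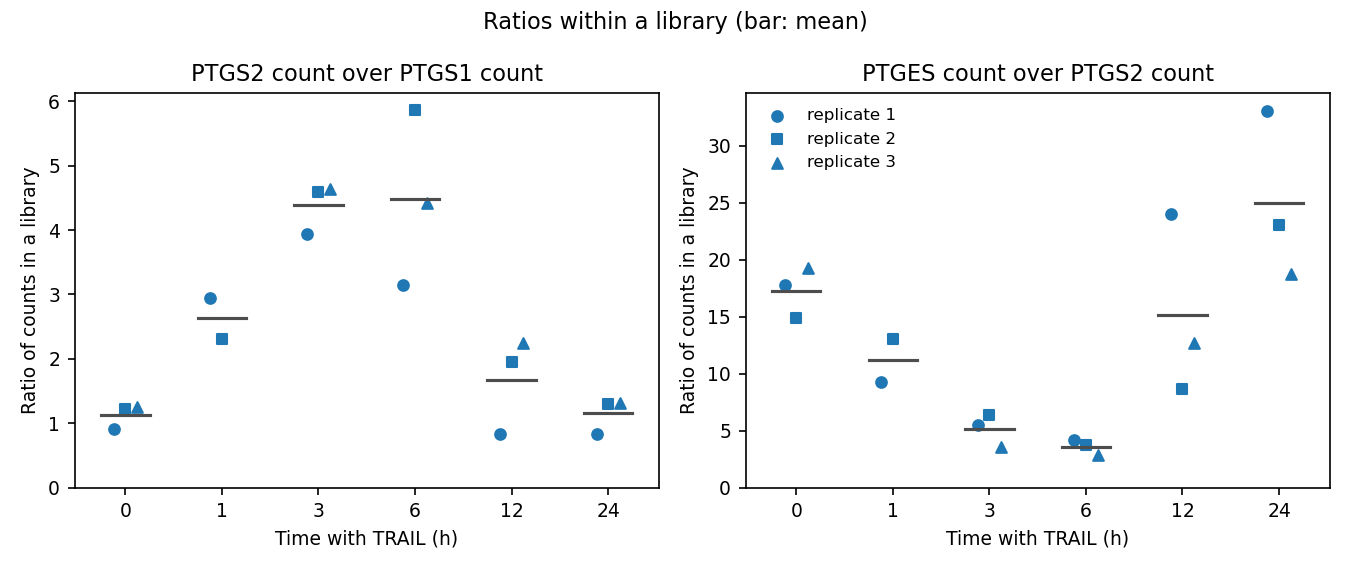
Ratio of counts within each library (vertical axes, from 0) by time with TRAIL (horizontal axis, h), PTGS2 to PTGS1 and PTGES to PTGS2. Points are libraries and bars are means of 3 libraries, or 2 at 1 h. The first ratio averages 1.13 at 0 h and 4.48 at 6 h, and the second 17.3 at 0 h and 3.60 at 6 h.

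The list of leukocyte markers was lowest at 3 h and, like PTGES, highest at 24 h, with a summed level of 81.9 to 92.5 CPM at 0 h, 62.6 to 69.7 at 3 h, 77.1 to 79.0 at 6 h and 100.2 to 106.5 at 24 h. Most of that sum was CD68, a lysosomal protein, at 57.6 to 98.3 CPM, while 7 of the 10 markers stayed under 1 CPM in every library. CD3E and FCGR3A were at 0 in every library, and PTPRC, the general leukocyte marker, had at most 5 counts. The fibroblast and endothelial markers summed to 23.3 to 30.5 CPM in all libraries.

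PTGES2 (ENSG00000148334, chr9:128120693-128128462, minus strand) encodes a second membrane-associated prostaglandin E synthase. Its level was 70.7, 77.4 and 68.5 CPM at 0 h, 66.1 and 77.3 CPM at 1 h and 73.0, 77.7 and 65.3 CPM at 3 h. These 3 groups overlapped. At 6 h it was 66.2, 63.9 and 66.3 CPM, at 12 h 56.7, 54.2 and 64.4 CPM and at 24 h 56.4, 47.7 and 53.2 CPM. All libraries from 6 h on lay below those at 0 h. The log2 difference from 0 h was -0.14 at 6 h (SE 0.083, edgeR adjusted p = 0.206), and PTGES2 fell by 0.31 at 12 h (SE 0.0833, edgeR adjusted p = 0.0212) and by 0.46 at 24 h (SE 0.0841, edgeR adjusted p = 4.88e-04). With the trend on gene length and GC content removed, the value was 0.04 at 6 h (edgeR adjusted p = 0.599), above 0. It was then -0.14 at 12 h (adjusted p = 0.0936) and -0.23 at 24 h (adjusted p = 0.00318). The size of the fall, and the sign at 6 h, thus depended on that choice. The 12 h call was also lost without replicate 2 at 0 h (-0.25, adjusted p = 0.108), without replicate 1 at 12 h (-0.29, adjusted p = 0.0605) and without replicate 2 at 12 h (-0.25, adjusted p = 0.121).

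PTGES3 (ENSG00000110958, chr12:56663341-56688408, minus strand) encodes p23, a co-chaperone of HSP90 that is also described as the cytosolic prostaglandin E synthase. It was measured at 374, 361 and 389 CPM at 0 h, 381 and 351 CPM at 1 h and 340, 321 and 373 CPM at 3 h. At 6 h it was 417, 426 and 422 CPM, all above those at 0 h. At 12 h it was 362, 390 and 376 CPM, which overlapped the 0 h range, and at 24 h 412, 390 and 389 CPM, just above it. PTGES3 was higher by 0.17 at 6 h than at 0 h on the log2 scale (SE 0.0588, edgeR adjusted p = 0.035), a fold of 1.12, and by 0.29 at 6 h than at 3 h (SE 0.059, edgeR adjusted p = 6.79e-04). The call against 0 h was lost with upper-quartile scaling (0.10, adjusted p = 0.184), without replicate 1 at 0 h (0.17, adjusted p = 0.0865) and without replicate 2 at 0 h (0.14, adjusted p = 0.118). It was also lost without replicate 2 at 6 h (0.16, adjusted p = 0.102) and without replicate 3 at 6 h (0.17, adjusted p = 0.0929). The rise from 3 h to 6 h was kept in all alternatives run. Between 6 h and 12 h the difference of PTGES3 was -0.16 (SE 0.0587, edgeR adjusted p = 0.0538), with all libraries at 12 h below those at 6 h, and DESeq2 and limma-voom called it lower. Its expected counts were not whole in 16 of 17 libraries, as happens where reads are divided with near-identical copies such as its pseudogenes, so its level is uncertain to that extent.

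**Figure D3:**
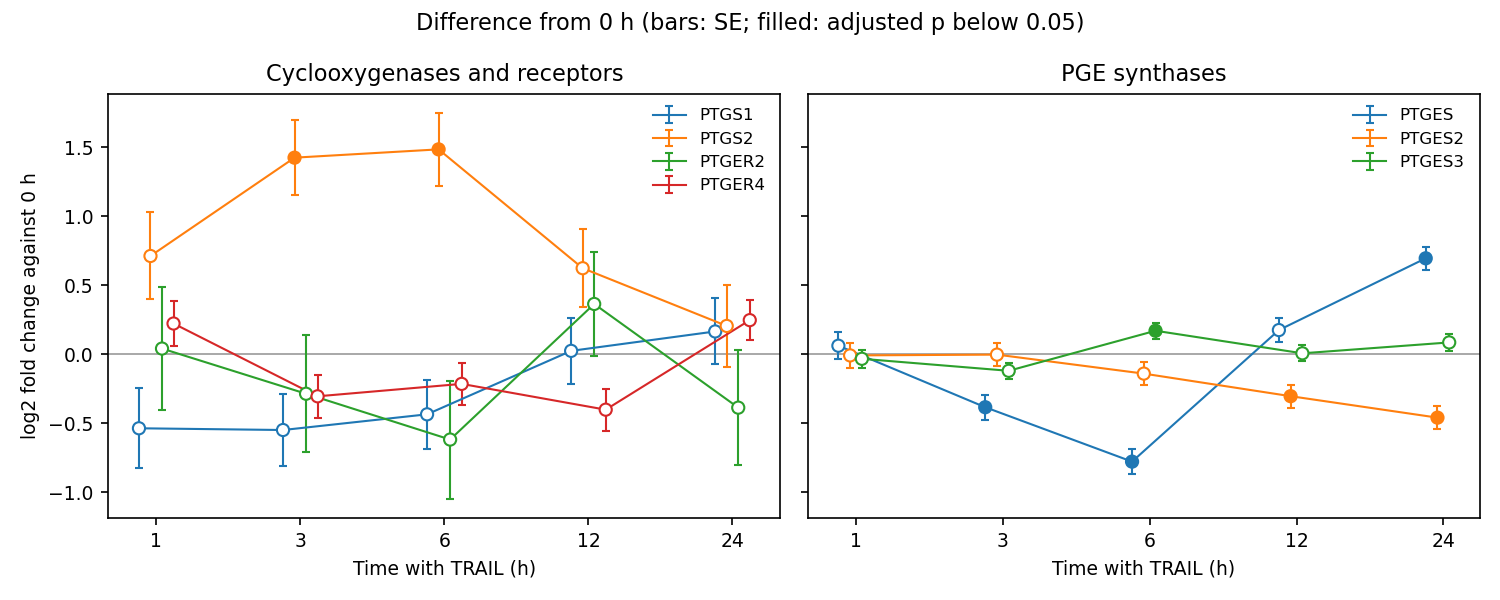
Log2 fold change against 0 h (vertical axis) of the 7 tested genes by time with TRAIL (horizontal axis, h), with SE as bars. Filled points have an edgeR adjusted p below 0.05: PTGS2 at 3 and 6 h, PTGES at 3, 6 and 24 h, PTGES2 at 12 and 24 h and PTGES3 at 6 h.

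HPGD (ENSG00000164120, chr4:174490177-174523154, minus strand) encodes hydroxyprostaglandin dehydrogenase, which starts the breakdown of prostaglandin E2. It had 0 to 9 counts per library and did not pass the filter on low counts. Its level was 0.187, 0.374 and 0.373 CPM at 0 h, 0.253 and 0.267 CPM at 1 h and 0.148, 0.233 and 0.502 CPM at 3 h. At 6 h it was 0.379, 0.265 and 0.216 CPM, and at 24 h 0.527, 0.372 and 0.334 CPM. The groups at these times overlapped that at 0 h. At 12 h HPGD was at 0.343 and 0.278 CPM in replicates 1 and 3 and at 0 counts in replicate 2, where a count of 0 allows up to 0.15 CPM, the level of 3 counts, for counting error only. With no filter on low counts it was not called at any time, with an edgeR adjusted p of at least 0.713 against 0 h, and a difference was not detectable at this depth.

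PTGER4 (ENSG00000171522, chr5:40679498-40693735, plus strand) encodes EP4, a receptor for prostaglandin E2 that couples to the G protein Gs. Its level was 5.04, 8.29 and 6.72 CPM at 0 h, with replicate 1 low, and 7.79 and 7.80 CPM at 1 h. At 3 h it was 5.27, 5.05 and 5.88 CPM, at 6 h 6.07, 5.70 and 5.50 CPM and at 12 h 5.96, 5.02 and 4.28 CPM. At 24 h it was 7.90, 7.87 and 8.01 CPM. All later groups overlapped the wide range at 0 h. PTGER4 was not called against 0 h at any time, with log2 differences from -0.40 at 12 h (SE 0.151, edgeR adjusted p = 0.0858) to 0.25 at 24 h (SE 0.145, edgeR adjusted p = 0.193). Without the low replicate 1 at 0 h, it was called lower at 3 h (-0.47, adjusted p = 0.0288) and at 12 h (-0.58, adjusted p = 0.0184). Without replicate 2 at 0 h, it was called higher at 24 h (0.43, adjusted p = 0.0327), and without replicate 1 at 12 h it was called lower at 12 h (-0.53, adjusted p = 0.0457). Between 12 h and 24 h PTGER4 rose by 0.65 on the log2 scale (SE 0.149, edgeR adjusted p = 0.00915), with all libraries at 24 h above those at 12 h. Between 1 h and 3 h its difference was -0.53 (SE 0.169, edgeR adjusted p = 0.073), which was called with no filter and without replicate 1 or replicate 2 at 0 h. TTC33 lies on the opposite strand across part of PTGER4, with 137 to 324 counts per library and 0 shared exon bases.

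PTGER2 (ENSG00000125384, chr14:52314305-52328606, plus strand) encodes EP2, the other receptor of prostaglandin E2 that couples to Gs. It had 5 to 23 counts per library. Its level was 0.436, 0.872 and 1.06 CPM at 0 h, 0.886 and 0.733 CPM at 1 h and 0.593, 0.621 and 0.717 CPM at 3 h. At 6 h it was 0.632, 0.663 and 0.270 CPM, at 12 h 0.686, 1.15 and 1.17 CPM and at 24 h 0.820, 0.310 and 0.667 CPM. All groups overlapped that at 0 h. PTGER2 was not called in any comparison, and the lowest edgeR adjusted p was 0.0895, for a log2 difference of 0.98 (SE 0.407) between 12 h and 6 h, where the 12 h libraries lay above those at 6 h.

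Levels of different genes are compared per kilobase of exon, with all annotated exons of a gene merged. Close places in the order depend on that choice of length. At 0 h PTGES3 stood highest at 110.3 ± 4.14 CPM per kb (SD, n = 3), followed by PTGES2 at 23.8 ± 1.54 and PTGES at 18.9 ± 0.336 CPM per kb. PTGER4 came next at 1.69 ± 0.410 CPM per kb, with no overlap between these neighbours. PTGS2 at 0.398 ± 0.0480, PTGS1 at 0.326 ± 0.0648 and PTGER2 at 0.319 ± 0.129 CPM per kb overlapped their neighbours in this order, and HPGD was lowest at 0.0563 ± 0.0195. Both cyclooxygenases were below the 3 prostaglandin E synthases per length at every time. PTGS2 kept its place below PTGER4 in the order of means at every time, but it reached 1.07 ± 0.294 CPM per kb at 3 h, when it overlapped PTGER4 at 1.36 ± 0.109. PTGES stood below PTGES2 without overlap from 0 h to 6 h, overlapped it at 12 h and stood above it at 24 h, at 30.6 ± 1.83 against 17.3 ± 1.44 CPM per kb. PTGER2 stood above PTGS1 at 1 h without overlap, at 0.327 ± 0.0437 against 0.224 ± 0.00766 CPM per kb (SD, n = 2), and above it with overlap at 3 h and 12 h.

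**Figure D4:**
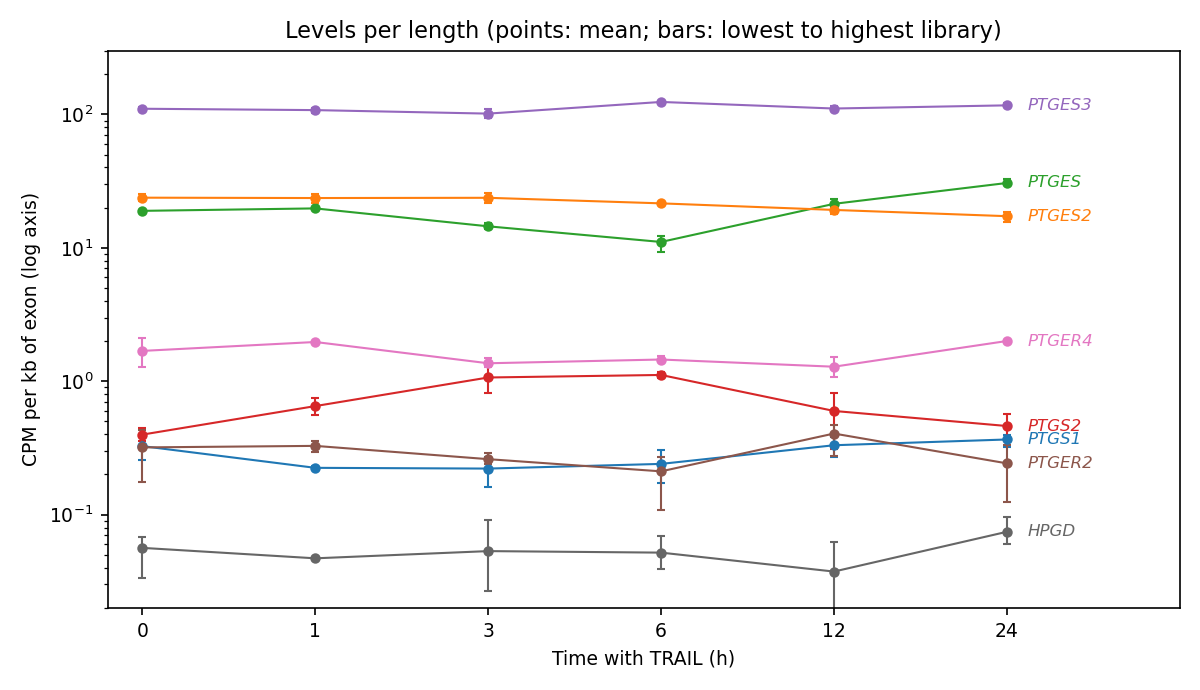
Level in CPM per kb of exon (vertical axis, log scale) of the 8 genes by time with TRAIL (horizontal axis, h). Points are means and bars run from the lowest to the highest library. At 12 h the bar of HPGD runs to the bottom of the axis because 1 library had 0 counts, and at 24 h PTGES stands above PTGES2.

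The pattern ATTTA, the core of AU-rich elements, was counted in the longest 3' UTR that GENCODE 29 gives for each gene as basic. PTGS2 held 22 in 2562 bases, or 8.59 per kb, and 1.48% of the 12809 tested protein-coding genes had as high a density. PTGER4 held 9, or 6.63 per kb, a density that 3.51% of those genes reached. PTGES3 held 5.28 per kb, a density that 7.16% reached, and PTGER2 4.34 per kb, which 12.1% reached. HPGD held 2.62 per kb and PTGS1 0.95 per kb. PTGES held 1 in 1280 bases and PTGES2 held 0 in 452 bases. The median over the 12809 genes was 2, or 1.63 per kb. These counts describe the annotated sequence, and whether the pattern has a part in the changes was not tested.

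Among 11369 tested genes whose log2 CPM averaged 2 or more, the 5 with the highest Pearson correlation with PTGS2 over the 17 libraries included RNASEH1 (0.90), MCL1 (0.90), SHISA2 (0.89) and TIPARP (0.89). MCL1, an anti-apoptotic member of the BCL2 family, had a mean of 296 CPM at 0 h, of 384 CPM at 3 h and of 412 CPM at 6 h. TIPARP, a mono-ADP-ribosyltransferase, had a mean of 57.1 CPM at 0 h, of 110.1 CPM at 3 h and of 102.9 CPM at 6 h. The 5 genes most like PTGES were IFIT1 (0.98), LINC02009 (0.97), SERPINB1 (0.97), LAPTM5 (0.96) and AIM2 (0.95). IFIT1, an interferon-induced gene, had a mean of 47.5 CPM at 0 h, of 28.4 CPM at 6 h and of 79.9 CPM at 24 h. AIM2, a sensor of cytosolic DNA, had a mean of 6.41 CPM at 0 h, of 4.17 CPM at 6 h and of 8.97 CPM at 24 h. These correlations are descriptions over 17 libraries from 6 times, which share library depth and time.

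Around these 8 genes, 6 lists of other genes of the pathway held 75 genes, of which 73 had a row and 54 were tested. At 1 or more times against 0 h, 33 of the 54 were called, beside 56.8% of all genes tested. Of the 58 calls, 24 were kept in all alternatives run, in 19 genes. The genes named below were chosen after the values were seen, and calls that are not among those 24 are pointed out.

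Among genes that release arachidonate or return it to lipids, 6 of 13 tested were called at some time, beside 56.8% of all genes. ACSL4 couples free arachidonate to coenzyme A, a step towards its return to lipids and not its release. It rose by 0.62 on the log2 scale at 6 h (SE 0.132, edgeR adjusted p = 0.00334). PLA2G16, a phospholipase, fell by 0.46 at 6 h (SE 0.082, edgeR adjusted p = 4.43e-04). PLA2G4A, the cytosolic phospholipase that supplies the cyclooxygenases, had 6 to 26 counts per library, and its call at 24 h (0.83, edgeR adjusted p = 0.0426) was lost in 11 alternatives. Of the other prostanoid synthases, 6 of 8 tested were lower at 6 h and 0 were higher, with a median log2 fold change of -0.38, while 13.2% of all genes were called lower at that time. The 6 became 3 without replicate 1 at 0 h and 3 without replicate 2 at 6 h. TBXAS1, the thromboxane synthase, fell by 0.49 at 6 h (SE 0.103, edgeR adjusted p = 0.0018) and by 0.49 at 12 h (SE 0.102, edgeR adjusted p = 0.00415). AKR1C3, which makes prostaglandin F compounds, fell by 0.57 at 6 h (SE 0.0708, edgeR adjusted p = 1.54e-05), and CBR1, a carbonyl reductase of prostaglandin E2, by 0.45 at 6 h (SE 0.0739, edgeR adjusted p = 2.28e-04). The AKR1C genes are near-identical copies with expected counts that were not whole, so their separate values are uncertain. HPGDS, the haematopoietic prostaglandin D synthase, was at 0 counts in every library.

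Of the genes of prostaglandin transport and breakdown, 2 of 7 tested were called at some time, beside 56.8% of all genes. PTGR1, a reductase that inactivates prostaglandins and leukotrienes after HPGD, rose by 0.51 at 24 h (SE 0.094, edgeR adjusted p = 5.25e-04). At 3 h PTGR1 was called lower (-0.29, edgeR adjusted p = 0.0454), a call lost in 9 alternatives. ABCC4, an exporter of prostaglandin E2, had a mean of 25.4 ± 1.68 CPM at 0 h, of 19.6 ± 1.25 CPM at 3 h and of 32.3 ± 2.33 CPM at 6 h (SD, n = 3). It was called lower at 3 h (-0.37, edgeR adjusted p = 0.0384) and higher at 6 h (0.35, edgeR adjusted p = 0.0258) and 24 h (0.33, edgeR adjusted p = 0.0291), calls that were lost in at least 1 alternative. Of the 8 genes listed under other prostanoid receptors, 3 passed the filter and 0 were called against 0 h by edgeR, DESeq2 or limma-voom. Of these 3, 1 had an unadjusted p below 0.05 at 6 h. PTGFRN, 1 of the 3 tested, is a partner protein of the prostaglandin F receptor and not itself a prostanoid receptor. The receptors PTGER1 and PTGER3, the remaining ones for prostaglandin E2, had at most 2 counts in any library. Of the 2 receptors among the 8 genes, PTGER4 stood above PTGER2 in CPM per kb at every time.

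Of 18 genes of cyclic AMP signalling, the branch that EP2 and EP4 feed, 14 were called at some time, beside 56.8% of all genes. At 3 h 4 were higher and 5 lower, beside 9.04% and 8.71% of all genes, and at 24 h 9 were higher and 1 lower, beside 18% and 17.1%. The 9 calls at 3 h became 4 without replicate 2 or replicate 3 at 0 h and 5 without replicate 2 at 3 h. The 10 calls at 24 h became 6 without replicate 1 at 0 h or replicate 3 at 24 h. NR4A1, an early-response nuclear receptor, was called higher from 1 h on (1.15, edgeR adjusted p = 0.00454), though the 1 h call was lost in 3 alternatives. Against 0 h it was higher by 1.48 at 3 h (SE 0.174, edgeR adjusted p = 7.74e-06) and by 1.02 at 6 h (SE 0.177, edgeR adjusted p = 3.66e-04). It was not called at 12 h, and its call at 24 h (0.56, edgeR adjusted p = 0.0392) was lost in 9 alternatives. Counts per library were low, at 20.79 to 54 for NR4A1 and 10 to 76 for PDE4B. PDE4B, a phosphodiesterase that breaks down cyclic AMP, fell by 1.00 at 3 h (SE 0.243, edgeR adjusted p = 0.00769) and was higher by 1.12 at 24 h (SE 0.189, edgeR adjusted p = 2.42e-04). PDE4D, of the same family, was higher by 0.80 at 24 h (SE 0.134, edgeR adjusted p = 2.22e-04). GNAS, which encodes the Gs alpha subunit, fell by 0.38 at 24 h (SE 0.0731, edgeR adjusted p = 6.72e-04), and its call as higher at 3 h (0.22, edgeR adjusted p = 0.0403) was lost in 7 alternatives. In the lipoxygenase branch, another route from arachidonic acid, all 5 of the 5 tested genes were called at some time, beside 56.8% of all genes. Only 1 call of this branch was kept in all alternatives run. It was that of LTB4R, a leukotriene B4 receptor, which fell by 0.87 at 24 h (SE 0.189, edgeR adjusted p = 0.00308). At 3 h LTB4R was called higher (0.62, edgeR adjusted p = 0.0271), a call lost in 5 alternatives.

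**Figure D5:**
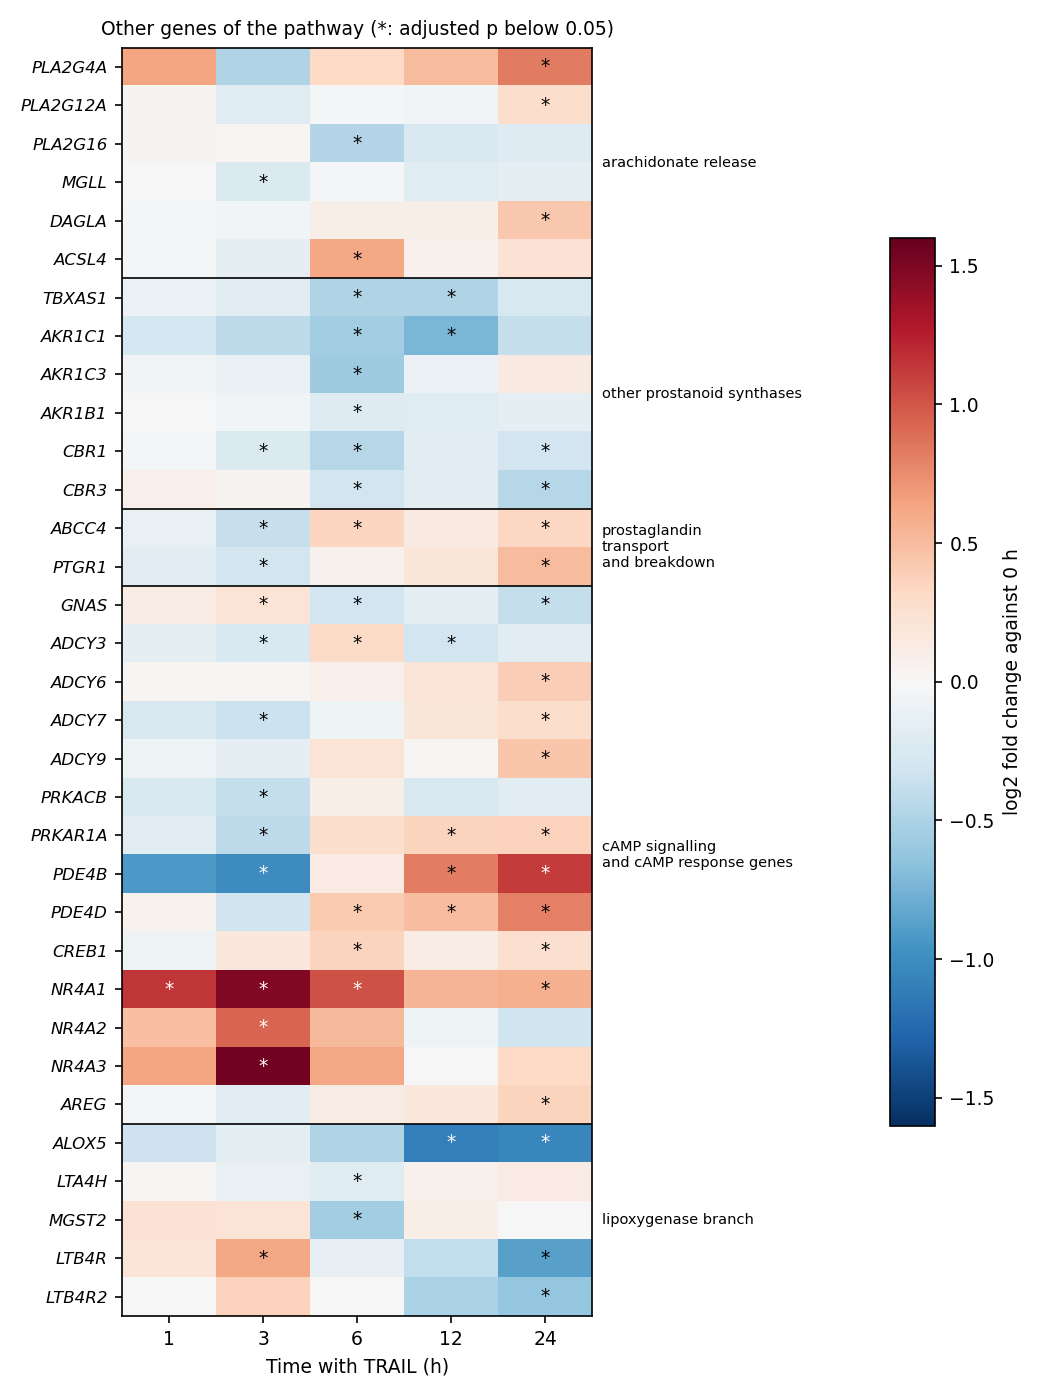
Log2 fold change against 0 h (colour scale) of other pathway genes (rows) by time with TRAIL (columns, h). Asterisks mark an edgeR adjusted p below 0.05. NR4A1 is high at 1, 3 and 6 h, and PDE4B is low at 3 h and high at 24 h.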

How the data were processed

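RNA came from MDA-MB-231 cells at 6 times with TRAIL, in 17 libraries of stranded, paired-end mRNA, per the labels' protocols. The authors deposited 1 table of gene-level expected counts, not scaled to depth or length. Per the file name these came from RSEM, and per the submitters' processing notes cutadapt 1.18, STAR 2.7.0f and hg38 were used. The annotation and the strand setting of the counting are not given in the sources used here. Of the expected counts, 10.8% were not whole, and they were rounded here. Total counts were 13731520 to 19234924 per library, and intervals and floors cover counting error only.

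Genes were kept by filterByExpr and libraries scaled by TMM (factors 0.939 to 1.06) in edgeR 4.0.16 (R 4.3.3). One robust quasi-likelihood model with a coefficient per time was fitted to all 17 libraries. Comparisons were of every later time with 0 h, of neighbouring times from 1 h on, and of all times in 1 F-test. Each SE was derived from the test, as the absolute log2 difference divided by the square root of its F statistic. The difference used for the SE was not shrunk, while the printed log2 fold changes are those of edgeR, which shrinks them towards 0 for low counts. P-values were adjusted by Benjamini-Hochberg over 15365 genes, of which 7 of the 8 prostaglandin genes were part. In counts simulated for 3 h against 0 h, the fit recovered 59 of 100 genes changed 1.5-fold and 78 of 100 changed 2-fold. There was 1 false call, and changes of these sizes could thus be missed. Only those genes, drawn at random over all levels, differed in the simulation, while 17.7% of genes were called at 3 h in the data. The shares recovered therefore need not hold for the data or for each of the 8 genes.

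The 8 genes and the lists were chosen with earlier results of these data known. All 8 genes are named with every library's level, listed pathway genes may be named where called, and the 5 genes with the highest correlation of log2 CPM (prior count 2) stand beside PTGS2 and beside the gene with the smallest p over all times. Of these, 1 gene is not reported here. Positions and exon lengths are from GENCODE 29 on GRCh38, where 58597 of 58870 entries, and 8 of the 8 genes, matched when the identifier's version was ignored. The list genes PDE4A and PER1 were not analysed here. Alternatives were RLE, upper-quartile and library-size scaling, no filter or one on the mean count (10), limma-voom (limma 3.58.1), DESeq2 1.42.0, non-robust estimation, only the 2 times compared, a replicate block, unrounded values, replicates 2 and 3 averaged at 6 h and 24 h, each library left out and, chosen after seeing the data, removal of the trend on length and GC content, which 15329 of the tested genes had values for.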

Additional observations from a re-analysis of the deposited data

How the results depend on the processing

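Of 1402 recomputed values of 47 results of single genes (each gene against 0 h, and the calls between neighbouring times and over all times), 1353 kept their direction and side of the threshold, 26 crossed it and 23 changed sign, all 23 of them not called in either case; the cause was not tested. At 12 h, 1 gene was called against 0 h, but 2 with no filter, 0 with the length and GC trend removed, and 0 to 2 with each library left out in turn. From 1 h to 3 h, 1 was called, but 3 with no filter and 0 to 2 with a library left out. From 6 h to 12 h, 2 were called, but 1 with replicates 2 and 3 averaged at 6 h and 24 h, 4 with the length and GC trend removed and 1 to 3 with a library left out. From 12 h to 24 h, 2 were called, but 1 with those replicates averaged, where PTGER4 was at 0.65 (edgeR adjusted p = 0.0512). With libraries left out, the counts were 0 to 0 at 1 h, 2 to 3 at 3 h, 6 h and 24 h, 2 to 2 from 3 h to 6 h and from 12 h to 24 h, and 5 to 6 over all times.

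In the main fit, the log2 fold changes whose sign changed lay between -0.14, for PTGES2 at 6 h, and 0.08, for PTGES3 at 24 h. With each library left out in turn, PTGES2 ran from -0.13 to 0.10 at 1 h (above 0 without 0 h replicate 2 or 1 h replicate 1) and from -0.0601 to 0.0658 at 3 h (without 0 h replicate 2 or 3 h replicate 3). PTGES3 ran from -0.0907 to 0.019 at 1 h (without 1 h replicate 2) and from -0.0208 to 0.0267 at 12 h, below 0 without 0 h replicate 1 or 2, any 3 h library or 12 h replicate 2. PTGER2 at 1 h ran from -0.25 to 0.31 (below 0 without 0 h replicate 1 or 1 h replicate 1), and PTGS1 at 12 h from -0.13 to 0.16 (below 0 without 0 h replicate 3 or 12 h replicate 1 or 2). Library size alone gave -0.0068 for PTGER2 at 1 h. A mean count of at least 10 gave 2.1e-04 for PTGES2 at 3 h and -0.0023 for PTGES3 at 12 h, where averaged replicates gave -0.0024. With the length and GC trend removed, PTGES2 was at 0.0427 at 6 h, and PTGES3 at -0.0759 at 12 h and -1.7e-05 at 24 h.

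Further crossings among these were PTGES3 at 6 h with no filter (0.17, adjusted p = 0.0639) and with averaged replicates (0.15, adjusted p = 0.134), PTGES3 at 3 h with library size alone (-0.19, adjusted p = 0.0413) and without 3 h replicate 3 (-0.18, adjusted p = 0.0401), PTGS2 at 12 h with no filter (0.63, adjusted p = 0.0348) and PTGS2 from 6 h to 12 h with averaged replicates (-0.84, adjusted p = 0.0653). Of differences not called between neighbouring times, PTGES3 from 6 h to 12 h was called lower with a mean count of at least 10, DESeq2, limma-voom, the length and GC trend removed, and without 0 h replicate 1 or 3, either 1 h library, 3 h replicate 2 or 3, or 24 h replicate 1. PTGES2 was called lower there with the length and GC trend removed, and from 1 h to 3 h PTGS2 and PTGER4 were called with no filter. PTGS1 was the gene added over all times. Between times, 8 of 40 same-numbered pairs of libraries deviated together with a correlation over 0.1, and 14 of 80 differently numbered pairs did. Deviations from means of 2 or 3 libraries constrain each other, so this cannot show whether replicate numbers pair the libraries. A replicate block moved the count of all called genes from 2727 to 2908 at 3 h and from 5388 to 5459 at 24 h, and it changed no call of the 7 genes, with 3 still called at 6 h. Scaling moved the split of all calls into higher and lower: 1389 and 1338 at 3 h became 913 and 2153 with library size alone, 2763 and 2625 at 24 h became 3742 and 1860, and 916 and 995 at 12 h became 1080 and 761. Upper-quartile scaling gave 1888 and 3047 at 6 h in place of 2602 and 2025. Between neighbouring times, 3526 and 3114 from 3 h to 6 h became 4301 and 2443 (upper-quartile 2852 and 3842), 1337 and 1831 from 6 h to 12 h became 1696 and 1276 (2184 and 1104), and 987 and 860 from 12 h to 24 h became 1270 and 627 (808 and 1052). Depth limits HPGD, PTGER2 and PTGS1, which had at most 9, 23 and 44 counts per library.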
